A study of Mus musculus with 8 samples.

Results

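The elastic fibre and fibrillin microfibril genes described here are 10 mouse genes, chosen by symbol from the 23420 named genes of 1 deposited table: elastin (Eln), the fibrillins Fbn1 and Fbn2, the fibulins Fbln1, Fbln2, Fbln5, Efemp1 and Efemp2, and the microfibril-associated Mfap4 and Mfap5. All 10 were found in the table with reads in both tissues. The tissues were corneal buttons, the clear cornea inside the limbus, and limbal rims, the ring where the cornea meets the sclera and conjunctiva. Both came from 8-week-old, wild type C57BL/6J mice for which no treatment is named, and the pieces of many eyes were pooled by tissue. Stranded libraries were made from total RNA. The comparison asks which matrix genes differ between the limbus, where the stem cells of the corneal epithelium reside, and the cornea itself.

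An elastic fibre has a core of crosslinked elastin inside a sheath of microfibrils, which are strings of fibrillin molecules with smaller glycoproteins attached. Fibulins bind elastin, fibrillin and the crosslinking enzymes and help to lay elastin down on the microfibrils. Fibrillin microfibrils also occur without elastin, as in the zonule that suspends the lens, and they hold latent TGF-beta binding proteins in the matrix.

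The labels give 4 samples for each tissue, named L001 to L004 in the manner of sequencing lanes, and do not say whether these are lanes of 1 library or separate libraries. The table's means could be written as whole reads of 1 set per tissue, here called the cornea library and the limbus library, with 26104317 and 21182025 reads on named genes. If several libraries were summed into a set, the counting intervals do not hold the spread between them. There was thus no replicate check, and no p-value is given. The read numbers of each gene were worked out from the table and divided by a size factor per library, which gave normalized reads. Each ratio is limbus over cornea, with an exact Clopper-Pearson 95% interval that covers counting error only, since neither animals nor repeat libraries enter it. A gene is called higher in a tissue beyond counting error where that interval of the log2 ratio leaves out 0.

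The fibrillins and fibulins are rich in cysteine codons, which follows from the repeats that define these families. Eln, Mfap4 and Mfap5 differ from them. Coding stretches are printed to show what these repeats look like. In the longest complete coding sequence of each gene, cysteine codons made up 12.6% in Fbn1, 12.5% in Fbn2, 10.2% in Fbln1, 9.09% in Efemp2, 8.89% in Fbln5, 8.76% in Fbln2 and 8.11% in Efemp1. The median over 21504 mouse genes was 2.13%. Fibrillins and fibulins are built of repeated EGF-like domains held together by cysteine pairs, whereas Mfap5 had 4.88%, Mfap4 2.85% and Eln 0.233% cysteine codons. Eln had 36.3% glycine codons against a median of 6.03% over all genes. For 4 genes the 40 codons richest in the named residue are printed in the reading frame, from the mRNA sequence of the GENCODE annotation of GRCm38. Capitals mark glycine codons in Eln and cysteine codons in Fbn1, Fbln5 and Efemp1.
Eln: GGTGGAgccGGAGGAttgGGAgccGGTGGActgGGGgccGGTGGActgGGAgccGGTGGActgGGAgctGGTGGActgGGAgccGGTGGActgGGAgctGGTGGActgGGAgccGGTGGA
Fbn1: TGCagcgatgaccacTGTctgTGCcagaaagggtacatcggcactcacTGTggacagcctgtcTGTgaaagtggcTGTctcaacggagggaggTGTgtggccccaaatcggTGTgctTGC
Fbln5: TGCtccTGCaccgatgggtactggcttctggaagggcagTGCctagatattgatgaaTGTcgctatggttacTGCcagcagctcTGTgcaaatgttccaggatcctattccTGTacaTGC
Efemp1: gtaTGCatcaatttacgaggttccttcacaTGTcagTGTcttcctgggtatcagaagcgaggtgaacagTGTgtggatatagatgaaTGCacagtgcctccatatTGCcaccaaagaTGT

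The Eln stretch is on the minus strand at chr5:134707526-134707645 in exon 31 of 37, and 25 of its 40 codons encode glycine. The Fbn1 stretch spans exons 4 to 5 of 65 at chr2:125466637-125468600 on the minus strand and holds 9 cysteine codons. The Fbln5 stretch, exons 5 to 6 of 11 at chr12:101768436-101771290 on the minus strand, holds 8. The Efemp1 stretch, exons 5 to 6 of 11 at chr11:28910657-28914631 on the plus strand, holds 7. Each stretch was picked for that residue, so its density is a description of the gene's richest part.

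Of the 10 genes, 9 exceeded counting error towards the limbus, against 34% of the 15572 genes that had more than 3 reads in at least 1 library. None was higher in the cornea beyond counting error, against 36.5% of all genes. At least 2-fold higher in the limbus were 8 of the 10, against 16.5% of all genes, and 0 were at least 2-fold higher in the cornea, against 8.12%. Their median log2 ratio was 1.93, and that of all genes was 0.01 with quartiles at -0.48 and 0.72. Scaling to total reads moved every log2 ratio up by 0.21. The split of all genes called beyond counting error then went from 5297 higher in the limbus and 5681 higher in the cornea to 7017 and 4157. In bulk tissue, fewer cells of a type and less RNA per cell cannot be told apart.

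**Figure D1:**
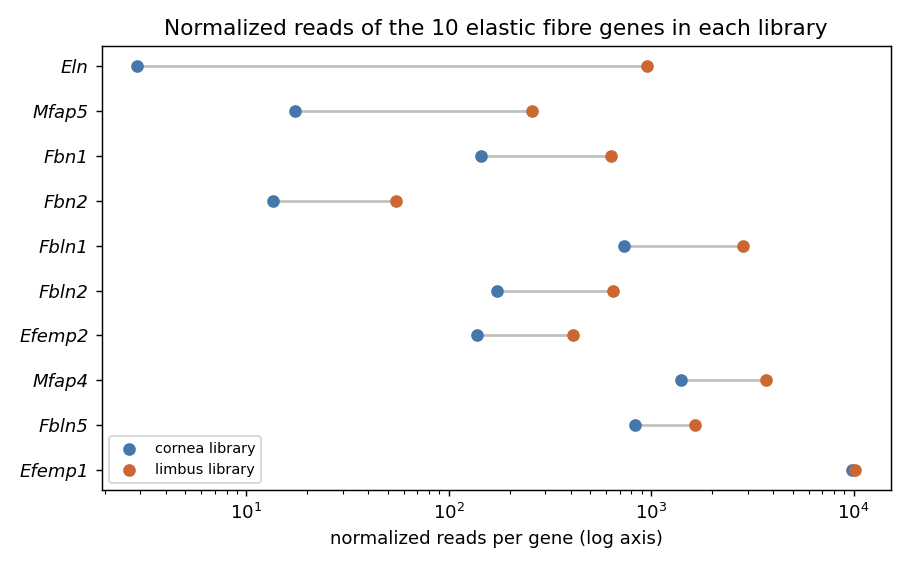
Normalized reads of each gene (log axis) in the cornea library and the limbus library, with a line joining the 2 values of a gene. Every gene but Efemp1 has its limbus point clearly to the right of its cornea point, and the widest gap is that of Eln, from 2.90 to 955 normalized reads.

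Eln encodes tropoelastin, the soluble unit that is crosslinked into the elastin core. It had 3 reads in the cornea library and 924 in the limbus library. The limbal rim thus held nearly all of the elastin reads, 99.7% of those of both libraries. The log2 ratio was 8.36 (interval 6.81 to 10.64), the largest of the 10, and its lower end lay above the upper end of every other member. Eln lies at chr5:134702593-134747323 on the minus strand, and Gm30003 overlaps it on the opposite strand. The cornea count is small enough that the size of the ratio is known only within that wide interval.

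The fibrillins are the backbone of the microfibril. Fbn1, the main fibrillin of adult tissue and the gene mutated in Marfan syndrome, had 150 cornea reads and 611 limbus reads, a log2 ratio of 2.12 (interval 1.86 to 2.39). Fbn2, the fibrillin most used in the embryo, had 14 cornea reads and 53 limbus reads, a log2 ratio of 2.02 (interval 1.15 to 2.98). The fibrillins were therefore both about 4-fold higher in the limbus, at very different levels, and the intervals of their ratios overlapped. Fbn1 lies at chr2:125300594-125507993 and Fbn2 at chr18:58008623-58210487, both on the minus strand, overlapped on the opposite strand by Gm9913 and Gm26507. Per kb of the longest coding transcript, the cornea level of Fbn1 was 12.1 normalized reads and its limbus level 52.8. The level of Fbn2 on that scale was 1.23 and 4.96, the lowest of the 10 genes in the limbus and the lowest but Eln in the cornea.

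The small glycoproteins on the microfibril differed from each other. Mfap5, known as MAGP-2, binds fibrillins directly, and had 18 cornea reads against 249 limbus reads. Its log2 ratio of 3.89 (interval 3.20 to 4.66) was the largest after Eln, and its interval lay apart from those of all other members. Mfap4, a fibrinogen-related glycoprotein that binds elastin and fibrillin, had 1456 cornea reads and 3588 limbus reads. Its log2 ratio was 1.40 (interval 1.31 to 1.49). Mfap4 was thus abundant in both tissues, whereas Mfap5 had few reads in the cornea. Mfap5 lies at chr6:122505845-122529290 on the plus strand with no overlapping gene. Mfap4 lies at chr11:61485431-61488900 on the plus strand, and the protein-coding gene Mapk7 overlaps it on the opposite strand. Whether counting used strand is not given in the sources used here, so reads of overlapping partners may enter the values of Eln, Fbn1, Fbn2, Mfap4 and Efemp2.

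Of the 5 fibulins, the long ones, Fbln1 and Fbln2, had the largest ratios. Fbln1, a partner of fibronectin, basement membranes and elastic fibres, had 756 cornea reads and 2747 limbus reads, a log2 ratio of 1.96 (interval 1.84 to 2.08). Fbln2, found with fibrillin-1 and at vessel walls, had 179 and 626, a log2 ratio of 1.90 (interval 1.66 to 2.15). These ratios differed by less than their counting error. Fbln1 lies at chr15:85205949-85286535 and Fbln2 at chr6:91212455-91272540, both on the plus strand.

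The short fibulins, Fbln5, Efemp1 and Efemp2, spread over a wide range. Efemp2 (fibulin-4), which brings lysyl oxidase to tropoelastin and is needed for elastic fibres to form, had 143 cornea reads and 397 limbus reads, a log2 ratio of 1.57 (interval 1.29 to 1.85). Fbln5, which tethers elastin to microfibrils and to cell surface integrins, had 860 and 1601, a log2 ratio of 0.99 (interval 0.87 to 1.11). Fbln5 was thus higher in the limbus beyond counting error but just under 2-fold, and by the trimmed mean of M-values it lay just over, at 1.01. Efemp1 (fibulin-3), whose human counterpart carries mutations in a retinal dystrophy with drusen, had 10176 cornea reads and 9790 limbus reads. Its log2 ratio of 0.04 (interval -0.00021 to 0.08) did not differ from 0 beyond counting error under the size factors, though it did at 0.25 after scaling to total reads and, by the trimmed mean of M-values, at 0.06. Efemp1 was the gene of the 10 with by far the most reads in each library, so this narrow interval rests on many reads. Efemp2 lies at chr19:5473954-5482517, overlapped by Mus81 on the opposite strand, Efemp1 at chr11:28853204-28926743, and Fbln5 at chr12:101746565-101819055 on the minus strand.

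**Figure D2:**
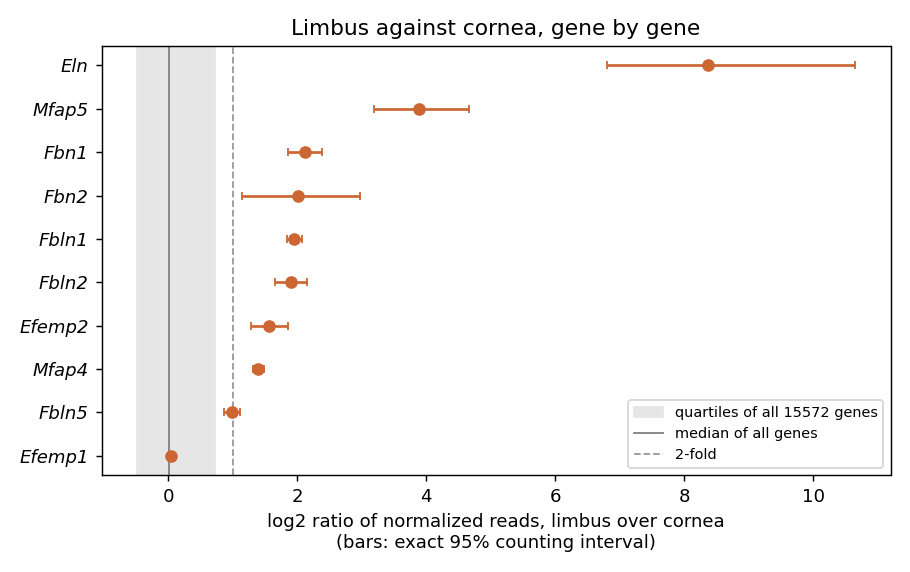
Log2 ratio of normalized reads, limbus over cornea, for each gene, with bars for the exact 95% counting interval, the quartiles (grey) and median of all genes, and a dashed line at 2-fold. Eln at 8.36 and Mfap5 at 3.89 stand apart on the right, 6 genes from Fbn1 to Mfap4 lie between 2.12 and 1.40, Fbln5 sits at the 2-fold line and Efemp1 near 0.

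Ordered by ratio, the 10 genes fell into steps. Eln and Mfap5 were each separated from the next gene by intervals that did not overlap. Fbn1, Fbn2, Fbln1, Fbln2, Efemp2 and Mfap4 followed, and within that run no gene could be told from its neighbour by counting error. Mfap4 and Fbln5 were separated again, as were Fbln5 and Efemp1, whose log2 ratios differed by 0.95. No such step says anything about the spread between animals.

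Levels can be compared between genes only per length, so normalized reads were divided by the longest coding transcript in kb. On this scale Efemp1 was the leading gene, with a level of 4833 in the cornea and 4968 in the limbus. Mfap4 came next with levels of 818 and 2154, then Fbln1 with 200 and 776, and Fbln5 with 143 and 284. The remaining 6 genes had levels of at most 52.5 in the cornea, the level of Efemp2 there. Eln went from last place in the cornea, with a level of 0.753 per kb, to place 5 in the limbus, with 248. Dividing by all annotated exonic bases in place of the longest transcript left these top 4 places and the places of Eln as they were.

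The sum of the 10 levels per kb was 6107 for the cornea and 8950 for the limbus, giving a ratio of 1.47. Efemp1 alone made up 79.1% of that sum in the cornea and 55.5% in the limbus. Without Efemp1 the sum was 1275 and 3982, a ratio of 3.12. The share of Mfap4 was 13.4% and 24.1%, that of Fbln1 was 3.27% and 8.67%, and that of Eln was 0.0123% and 2.77%. The make-up of the group thus differed between the tissues as well as its amount.

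**Figure D3:**
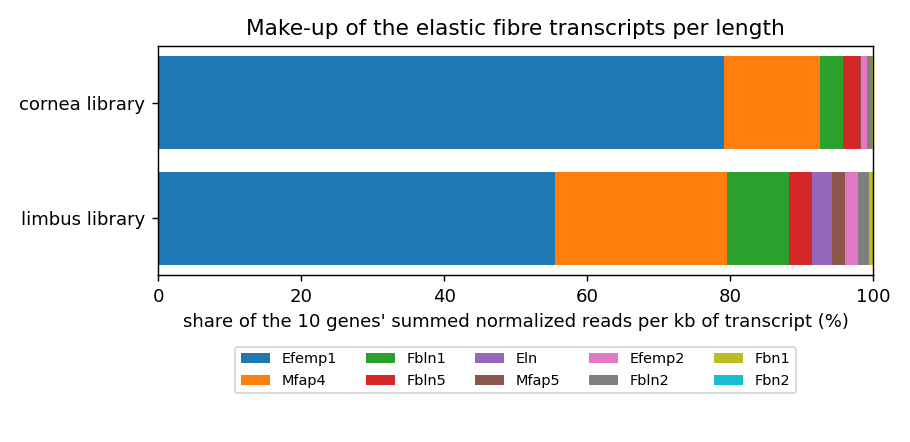
Share of each gene, in percent, of the summed normalized reads per kb of transcript of the 10 genes, with 1 bar per library. Efemp1 fills 79.1% of the cornea bar and 55.5% of the limbus bar, and Eln, at 2.77% in the limbus, is too thin to see in the cornea.

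Promoter sequences of 6 of the 10 genes (Fbn1, Fbln1, Fbln2, Fbln5, Efemp1 and Efemp2) were matched in RefSeq on GRCm38.p6, with 10 start sites in all. Eln, Fbn2, Mfap4 and Mfap5 were not matched. The 250 bases before 1 start site are printed for each of the short fibulins, whose ratios ran from 1.03-fold to 2.97-fold, so that the gene with the smallest ratio can be set beside its relatives. Capitals mark the GC box, GGGCGG, and an AP-1-like pattern, TGANTCA with any base at N, on either strand. The windows are chr11:28852955-28853204 on the plus strand for Efemp1, chr19:5473696-5473945 on the plus strand for Efemp2, and chr12:101819120-101819369 on the minus strand for Fbln5.
Efemp1: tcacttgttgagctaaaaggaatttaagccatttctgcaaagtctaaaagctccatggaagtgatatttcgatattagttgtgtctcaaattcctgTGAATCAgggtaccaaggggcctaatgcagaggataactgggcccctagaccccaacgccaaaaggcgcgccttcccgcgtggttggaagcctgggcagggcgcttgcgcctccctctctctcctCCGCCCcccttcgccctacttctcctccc
Efemp2: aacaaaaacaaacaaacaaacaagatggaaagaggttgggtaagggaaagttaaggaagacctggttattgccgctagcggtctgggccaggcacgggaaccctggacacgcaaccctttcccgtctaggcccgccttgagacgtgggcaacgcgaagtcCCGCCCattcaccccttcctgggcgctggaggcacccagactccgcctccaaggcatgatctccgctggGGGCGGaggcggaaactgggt
Fbln5: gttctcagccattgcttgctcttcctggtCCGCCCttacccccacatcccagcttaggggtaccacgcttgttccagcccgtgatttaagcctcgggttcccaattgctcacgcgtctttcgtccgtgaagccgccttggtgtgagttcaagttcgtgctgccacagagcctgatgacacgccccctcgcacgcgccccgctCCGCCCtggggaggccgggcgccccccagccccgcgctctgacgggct

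The GC box was present in 8 of the 10 windows and in 32.7% of the 32851 promoters in the table. Some windows overlap each other and some genes have several, and by gene the box was in a window of each of the 6 matched genes. The GC content of the windows ran from 46.4% to 78.8%, beside a median of 52.4% over all promoters, and was not adjusted for. All 250 bases of the Fbn1 and Fbln2 windows lie in annotated exons. The AP-1-like pattern was present in 1 window, that of Efemp1, and in 6.75% of all promoters. It is looser than the AP-1 consensus, which has C or G at N, and the match in Efemp1, TGAATCA, is not a consensus site. The TATA box, TATAAA on either strand, was in 0 of the 10 windows and in 12.4% of all promoters. In the printed windows the GC box occurred once for Efemp1 and 2 times each for Efemp2 and Fbln5. At other start sites the number was 0 for Fbln5 and 5 for Efemp2, so it depends on the start site printed. A match is a stretch of letters and not a shown binding site.

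The genes whose products act on elastic fibres were taken from 7 further lists with 41 genes, of which 40 had a fold. Higher in the limbus beyond counting error were 33, higher in the cornea 4 and within counting error 3. At least 2-fold higher in the limbus were 25, and 0 were so in the cornea, against 16.5% and 8.12% of all genes. The counts of each list below stand beside these same shares of all genes. Their median log2 ratio was 1.73, or 1.68 with the 9 genes that had 3 reads or fewer in the cornea set to the lower end of their interval. With total reads as the scale the split was 34 to 3, and that of all genes was 7017 to 4157.

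All 8 further microfibril and elastin-interface genes were higher in the limbus, each at least 2-fold. Emilin1, a glycoprotein at the border of elastin and microfibril, had 135 cornea reads and 511 limbus reads, a log2 ratio of 2.02. Mfap2, the close relative of Mfap5, had 78 and 342, a log2 ratio of 2.23. Mmrn2, a gene of the Emilin family made by vessel endothelium, had 0 and 300, which is at least 36.2-fold higher in the limbus. Mfap2 thus had a ratio near that of the fibrillins, and Mfap5 a larger one.

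The latent TGF-beta binding proteins are relatives of the fibrillins, and those other than Ltbp2 anchor latent TGF-beta to microfibrils. All were higher in the limbus, 4 of 4 at least 2-fold. Ltbp4, which also assists fibulins in elastin assembly, had 1038 cornea reads and 4714 limbus reads, a log2 ratio of 2.28. Ltbp2, a binding protein of microfibrils that is needed in the ciliary zonule, had 2 and 316, a log2 ratio of 7.40 (interval 5.53 to 10.45). Ltbp1 had 353 and 1015, a log2 ratio of 1.62, and Ltbp3 had 928 and 2024, a log2 ratio of 1.22. Within this family, then, Ltbp2 had the pattern closest to that of Eln, very few cornea reads beside many from the limbus.

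The lysyl oxidases, which crosslink elastin and collagen, were also all higher in the limbus, 5 of 5 beyond counting error and 4 of them at least 2-fold. Loxl1, the family member most tied to elastin, had 269 cornea reads and 1420 limbus reads, a log2 ratio of 2.50. Loxl4 had 19 and 288, a log2 ratio of 4.02, and Loxl3 had 32 and 169, a log2 ratio of 2.50. Loxl2 had 125 and 268, a log2 ratio of 1.20. The founding member Lox, the partner of Efemp2, had 165 and 253 and the smallest ratio, 0.71 on the log2 scale or 1.64-fold.

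Among the ADAMTS-like and ADAMTS proteins of microfibrils, 4 of 6 were higher in the limbus, 1 in the cornea and 1 was within counting error. The shares of all genes were 34% for the limbus and 36.5% for the cornea. Adamtsl4, whose human counterpart is mutated in displaced lenses, had 1230 cornea reads and 2036 limbus reads, a log2 ratio of 0.82. Adamts10, which binds fibrillin-1, had 61 and 669, a log2 ratio of 3.55. Thsd4, a binder of fibrillin-1, had 179 and 270, a log2 ratio of 0.69. The exception was Adamts17, with 101 and 63, a log2 ratio of -0.59 (interval -1.06 to -0.12), named here after its value was seen.

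Of the enzymes that can degrade elastin, 5 of the 7 with a fold were higher in the limbus, against 34% of all genes. In the cornea 1 was higher, against 36.5% of all genes, and 1 was within counting error. Mmp2, a gelatinase, had 1275 cornea reads and 3637 limbus reads, a log2 ratio of 1.61. Ctsk, the cathepsin of bone resorption, had 234 and 1075, a log2 ratio of 2.30. Ctsl, a lysosomal cathepsin, went the other way with 31750 and 19697, a log2 ratio of -0.59. Elane, neutrophil elastase, was listed at 0. Since Ctsl had more reads than all others of this list, the sum of the list was lower in the limbus, at a ratio of 0.794.

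The integrin chains that bind elastic fibre proteins were divided, with 4 of 7 higher in the limbus, 2 in the cornea and 1 within counting error. Itgb1 had 5303 cornea reads and 3903 limbus reads, a log2 ratio of -0.35. Itgav had 2428 and 1652, a log2 ratio of -0.46, and Itgb5 had 2473 and 2885, a log2 ratio of 0.32. These chains also serve many other ligands and cell types. The elastin receptor complex, lysosomal enzymes of which a splice form of Glb1 binds elastin fragments, was higher in the limbus in 3 of 3, with log2 ratios of 0.84 for Neu1, 0.69 for Ctsa and 0.58 for Glb1, all under 2-fold.

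**Figure D4:**
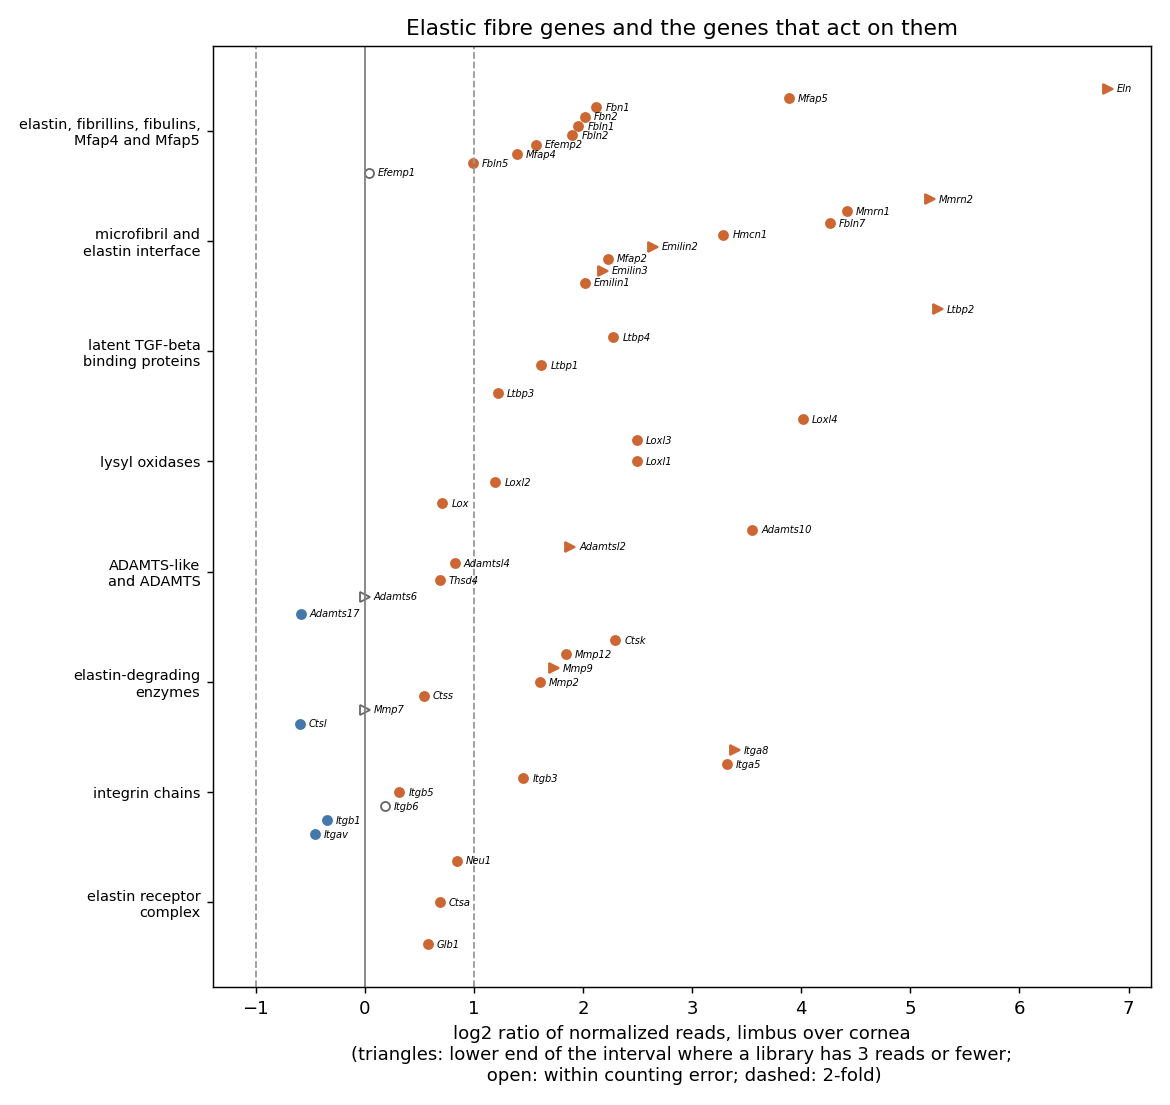
Log2 ratio of normalized reads, limbus over cornea, of every gene with a fold, in rows by list, with open symbols for genes within counting error. Triangles, where a library had 3 reads or fewer, lie at the lower end of the interval, or at 0 where that end was below 0. The microfibril, latent TGF-beta binding protein and lysyl oxidase rows lie wholly to the right of 0, whereas the ADAMTS, enzyme and integrin rows lie on both sides of it.

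Markers of other cell types also differed between the libraries, some towards the limbus and some towards the cornea. All 5 smooth muscle markers were higher in the limbus, and their summed normalized reads went from 76.4 for the cornea to 1887 for the limbus, with Des at 0 in the cornea library. Smooth muscle is a known source of elastin in vessel walls, and its part in the Eln reads was not tested. The ratio of these sums was 24.7, and the median log2 ratio of the list was 4.29. All 5 markers of blood vessel endothelium were higher as well, with a median log2 ratio of 6.87. Their sums, 179 and 2219, gave a ratio of only 12.4 because Kdr, with 170 cornea reads and 278 limbus reads, made up most of the cornea sum. The other 4 endothelial markers had between 2 and 6 cornea reads and between 178 and 831 limbus reads.

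Fibroblast markers were split, with 4 of 6 higher in the limbus and 2, Pdgfra and Dpt, higher in the cornea, and sums of 8694 and 24208. Keratocyte markers, of the cells that keep the corneal stroma, were split too: Kera and Aldh1a1 were higher in the cornea, Ptgds was 11.2-fold higher in the limbus and Lum was within counting error. They summed to 27226 in the corneal library and 13202 in the limbal one, giving a ratio of 0.485. Markers of the corneal endothelium, 3 of 3, were higher in the limbus with a ratio of sums of 2.78. In the trabecular meshwork list, 2 of the 3 genes in the table were higher in the limbus. Myoc had 9 cornea reads and 1119 limbus reads, and Mgp had 672 and 5944. Angptl7 went the other way with 5443 and 3605, and the ratio of sums was 1.86. Epithelial markers followed the tissue labels: the 4 corneal epithelium markers were all higher in the cornea, with a ratio of sums of 0.415, and the 5 limbal and conjunctival markers were all higher in the limbus, with a ratio of 7.76.

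Tissue from around the limbus was also present in that library. All 4 skeletal muscle markers were higher there, with sums of 27.1 in the cornea and 8548 in the limbus. Lens and melanocyte markers were higher in the limbus at ratios of their sums of 10.8 and 5.38. Of the 3 ciliary epithelium markers, 2 were higher in the limbus and 1 was within counting error. Their sums were only 20.3 and 155, a ratio of 7.63. The photoreceptor markers had sums of 478 and 4792. The Schwann cell markers had a ratio of 1.64. The cartilage markers had sums of only 5.80 and 175, with Matn1 at 0 in both libraries and Acan at 0 in the cornea. For Eln, Mfap5, Fbn1 and the other genes that were higher in the limbus, the part of these cell types in the result was not tested.

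**Figure D5:**
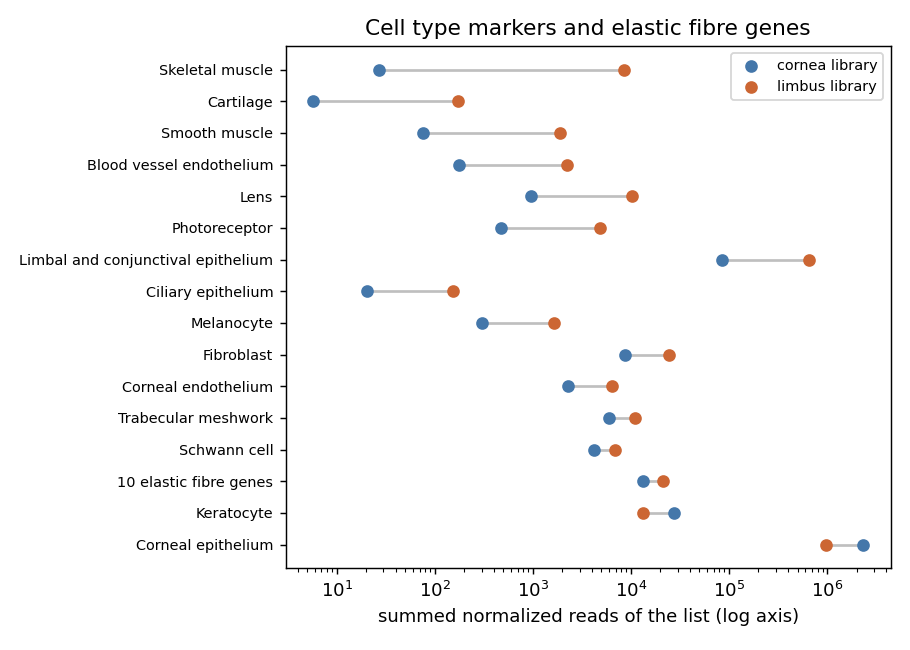
Summed normalized reads (log axis) of 15 lists of cell type markers and of the 10 elastic fibre genes in each library, ordered by their ratio. Skeletal muscle (27.1 to 8548), smooth muscle (76.4 to 1887) and vessel endothelium (179 to 2219) have wide gaps towards the limbus, the elastic fibre genes as a sum (13306 to 21281) a small one, and the keratocyte and corneal epithelium sums are larger in the cornea.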

How the data were processed

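RNA sequencing of pooled mouse corneal buttons and limbal rims was analyzed from 1 table comparing the tissues. The authors trimmed adaptors and mapped reads to GRCm38 in CLC Genomics Workbench. The authors deposited, per gene, a mean normalized signal over both libraries. The authors also deposited a log2 fold change and its standard error, and p-values with adjusted p-values from their own comparison. The p-values were not used. The log2 fold change and standard error served only to decide which pair of whole read numbers gave a mean, and are not printed.

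Of 40904 rows, 23420 name a gene, 17484 unnamed rows were left out and 5978 named genes are listed at 0. Each mean is the average of cornea and limbus reads divided by size factors of 1.03 and 0.967. For 6143 genes the mean allows 1 pair of read numbers. For 11299 the pair was chosen whose standard error, predicted from the log2 fold change by a shrinkage model, met the deposited one. All 17442 genes were met to within 0.0001, and the next best pair missed by at least 23.1 times as much. On simulated data 17050 of 17050 read pairs were found, and 200 of 200 changed genes had the right direction. Read numbers are thus derived values.

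Groups follow the sample labels, and the table holds 1 set of reads per tissue, treated as 1 library, so no test across replicates was made. Reads of 3 or fewer were set to 3 for calls, medians and counts, and no fold is given where both are. With 1 to 3 reads the ratio is printed as counted with its interval, and with 0 the lower end of the interval against 3 reads. Intervals are exact Clopper-Pearson at 95%. Alternatives were scaling to total reads, a trimmed mean of M-values (30% of ratios and 5% of means trimmed), a pseudocount of 1, filters on a mean of 10 and 50, and a 99% interval. All 10 members are named, with, from each further list, the 3 genes with the most normalized reads and every gene of lists of 5 or fewer. The members and lists were chosen with earlier results of these data known. Positions, transcripts and exons are from GENCODE on GRCm38, and promoters from RefSeq. Python 3.11.15, numpy 2.4.6, scipy 1.17.1, pandas 2.3.3 and matplotlib 3.10.9 were used.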

Additional observations from a re-analysis of the deposited data

How the results depend on the processing

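The number of the 10 genes higher in the limbus beyond counting error was 9, and 10 after scaling either to total reads or by the trimmed mean of M-values, which added Efemp1. The number at least 2-fold higher was 8, and 9 under those scalings, which added Fbln5. A filter on a mean of at least 50, which removed Fbn2, gave 8 and 7. A mean of at least 10, a pseudocount of 1 and a 99% interval left the counts they bear on at 9 and 8. The median log2 ratio ran from 1.90 to 2.14 over the alternatives. Scaling to total reads moved 4 single genes beyond their counting interval, to log2 ratios of 2.16 for Fbln1, 1.60 for Mfap4, 1.20 for Fbln5 and 0.25 for Efemp1. No direction changed under any alternative run. No paired analysis was possible because the table holds no values of the numbered samples, and leaving out a replicate was not run for the same reason. The 3 cornea reads of Eln, 14 of Fbn2 and 18 of Mfap5 limit how well their ratios are known, and the 1 set of reads per tissue limits every result to these libraries.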
